A study of Mus musculus with 6 samples.

Results

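The 400 innermost and the 400 outermost spots of 1 adult brain section profiled for H3K4me3 were compared, out of 1200 spots of that section and 3450 spots in the 6 sections of the series. Spots were chosen by position alone. The Euclidean distance of each spot from the mean position of all spots (array row 51.3, array column 34.1) was computed, and the 400 spots nearest to it, up to 15.9 array steps away, were set against the 400 farthest from it, 23.1 to 33.9 steps away. Per the labels the section is wild-type adult mouse brain, cryosectioned at 20 µm and fixed, and it lay on a DNA array whose barcode pairs give the row and column of each spot. Antibodies against the mark recruited protein A fused to the transposase Tn5 to the array, which then cut the marked chromatin and tied it to the barcodes. Each section is a single sample: the other 5 are whole embryos at E11.5, wild-type, profiled for H3K27ac, H3K27me3 and H3K4me3, and decalcified, paraffin-embedded adult paws, 1 with collagen-induced arthritis and 1 control, profiled for H3K27ac. The labels name no brain region and no plane of cut, so inner and outer are positions on the array and not anatomical names.

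H3K4me3 is a modification of histone H3 that sits at the start of active genes, most of all at promoters rich in the dinucleotide CpG. In the brain it marks promoters used by all cells as well as those of neurons and of glia, so a spot that covers several cells mixes their marks. In an adult brain the outer surface carries meninges and often cortex, and deeper tissue holds white matter, ventricles with ependyma and choroid plexus, and, depending on the plane, thalamus, striatum or brainstem. Gene lists for these tissues were used to describe the inner and outer spots.

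Promoters are given for the first gene of each direction, Slc6a19 (inner) and Slitrk5 (outer), and for Mog, the called gene of the myelin list. They are shown 5′ to 3′ on the gene's strand from RefSeq (GRCm38.p6), 250 bases before to 50 after the gene's start, with each CG in capitals. The window in which the deposited values counted reads is not given in the sources used here, so these sequences show the genes and not the measured interval.
Slc6a19, 4 CG, chr13:73692587-73692886, minus strand: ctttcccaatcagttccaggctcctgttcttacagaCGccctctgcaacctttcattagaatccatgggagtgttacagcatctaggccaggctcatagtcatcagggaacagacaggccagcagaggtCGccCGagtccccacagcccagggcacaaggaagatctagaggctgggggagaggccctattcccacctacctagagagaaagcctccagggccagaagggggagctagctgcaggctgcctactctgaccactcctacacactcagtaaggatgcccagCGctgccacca
Slitrk5, 35 CG, chr14:111675777-111676076, plus strand: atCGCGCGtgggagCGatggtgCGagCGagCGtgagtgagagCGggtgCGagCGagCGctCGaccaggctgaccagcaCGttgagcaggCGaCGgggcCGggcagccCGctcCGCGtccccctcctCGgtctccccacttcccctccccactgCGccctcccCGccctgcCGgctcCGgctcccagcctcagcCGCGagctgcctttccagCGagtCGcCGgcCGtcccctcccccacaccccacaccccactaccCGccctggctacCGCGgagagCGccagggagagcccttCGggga
Mog, 3 CG, chr17:37023349-37023648, minus strand: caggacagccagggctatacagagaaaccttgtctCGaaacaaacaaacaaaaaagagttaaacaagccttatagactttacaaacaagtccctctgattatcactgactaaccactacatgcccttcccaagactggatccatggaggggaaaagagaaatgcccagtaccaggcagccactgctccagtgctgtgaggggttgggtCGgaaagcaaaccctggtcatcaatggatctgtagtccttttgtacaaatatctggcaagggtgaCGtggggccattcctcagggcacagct
The letters CG, which read the same on both strands, occur in 94.6% of the 32851 promoters of that table, with a median of 7 per promoter. Of these promoters, 93% have fewer CG than that of Slitrk5, 31.4% fewer than that of Slc6a19 and 23.3% fewer than that of Mog. Among the 18 leading genes described below, 13 have an entry in the table. The CpG content of leading inner and leading outer genes was not compared.

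The spots form an oval that spans rows 18 to 84 and columns 12 to 57, longer along the rows. The inner spots fill rows 36 to 67 and columns 19 to 50. Because of the oval shape, 371 of the 400 outer spots lie beyond the rows of the inner spots, so the comparison is mostly the middle of the long axis against its ends. The row and the column of a spot are both even or both odd in all 1200 spots. Reads recovered per gene and spot from the deposited values, as described with the processing, summed to 2036521 over 11345 genes.

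Depth differed by column parity and, less, by distance. In even columns the median spot had 2940 reads among inner, 2724 among middle and 2235 among outer spots, with 2245.5, 2101 and 1767 genes with a read. In odd columns the medians were 615.5, 646 and 531 reads, with 551, 575 and 486 genes. The inner spots held 591368 reads in 200 even-column spots and 127243 in 200 odd-column spots. The outer spots held 500173 reads in 201 even-column spots and 117789 in 199 odd-column spots. The median spot held 1.31 reads per gene with a read among inner and 1.26 among outer spots of even columns, and 1.11 among both in odd columns. Outer spots were thus shallower in both parities, and all comparisons below use shares of the reads of a spot, within even and within odd columns separately.

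**Figure D1:**
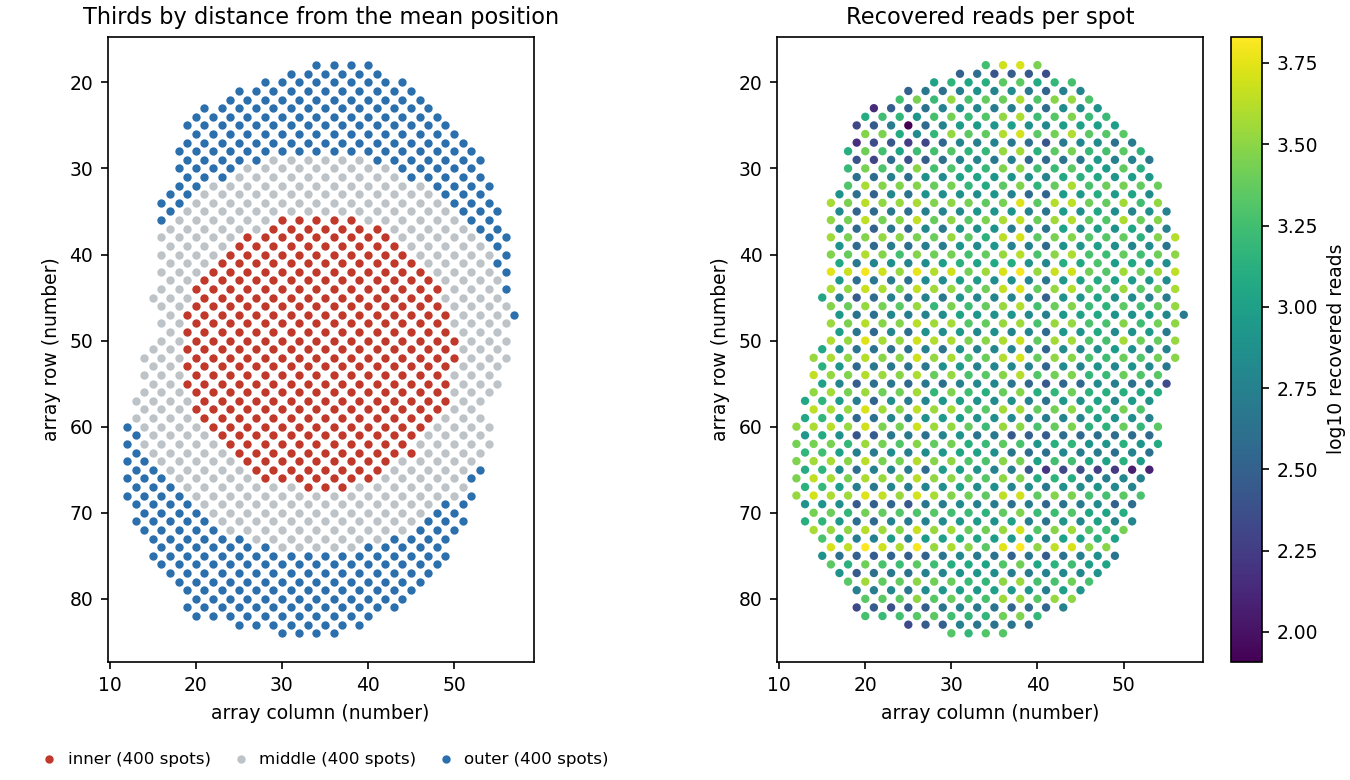
The 1200 spots of the brain section by array column and array row (numbers), coloured on the left by distance from the mean position (inner, middle and outer, 400 spots each) and on the right by log10 of the recovered reads. Stripes of deep even and shallow odd columns run over the whole section, and outer spots lie mostly at the ends of the long axis.

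With 1 section there is no spread between animals, spots are not replicates, and no test was made. A gene was called when the ratio of its mean share in inner spots to that in outer spots was at least 1.5-fold (0.58 on the log2 scale) the same way in even and in odd columns. Of 11345 genes, 164 were called higher in inner spots, 1.45% of those compared, and 111 higher in outer spots, 0.978%. A further 293 genes, 2.58%, were past 1.5-fold in opposite ways, higher in inner spots of one parity and in outer spots of the other. Genes past the threshold in both parities therefore went opposite ways (293) about as often as the same way (275). The log2 ratios of even and odd columns correlated at Pearson's r = 0.01 and Spearman's rho = 0.01 across the 11345 genes, which share libraries and spots and are not independent. Their signs were equal for 50.3% of the genes. In even columns alone 10.2% of the genes were past 1.5-fold in either direction, and in odd columns alone 41.9%. At 2-fold in both parities, 18 genes (0.159%) were higher in inner spots, 9 (0.0793%) in outer spots and 12 (0.106%) went opposite ways.

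More reads narrowed the ratios. The SD of the log2 ratio across genes was 0.36 in even and 0.81 in odd columns over all genes, and 0.14 and 0.29 over the 189 genes with at least 500 reads in inner and outer spots. Among those 189 genes, 0 were called in either direction (0.00% of them) and 0 went opposite ways. Their mean log2 ratios lay between -0.58 and 0.50. Among the 4280 genes with at least 100 reads, 14 were called higher in inner spots (0.327%), 9 in outer spots (0.210%) and 22 were past the threshold in opposite ways (0.514%), and r between the parities was 0.01. It was 0.05 over the 1130 genes with 200 to 500 reads, 0.07 over the 189 genes and 0.21 (rho = 0.25, signs equal for 61.5%) over the 26 genes with at least 2000 reads, whose mean log2 ratios lay between -0.25 and 0.14. For 1708 of these 4280 genes the 95% counting interval of the ratio of summed reads lay within 1.5-fold in both directions, as it did for 188 of the 189 deepest genes. For the median gene the half-width of that interval was 0.68, so a 1.5-fold difference in a single gene of median depth was not detectable in this section. The interval is exact and conditional on the sum of the reads (Clopper-Pearson), and covers counting error only. Of the 189 deepest genes, 126 have reads that are not lower bounds, as defined with the processing. Over those 126 genes r was 0.08 (rho = 0.02), the SDs were 0.15 and 0.33, and the interval lay within 1.5-fold for 125. Shares of genes with lower bounds can move with spot depth, as described below for Gm14569, which limits the values over the deepest genes.

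**Figure D2:**
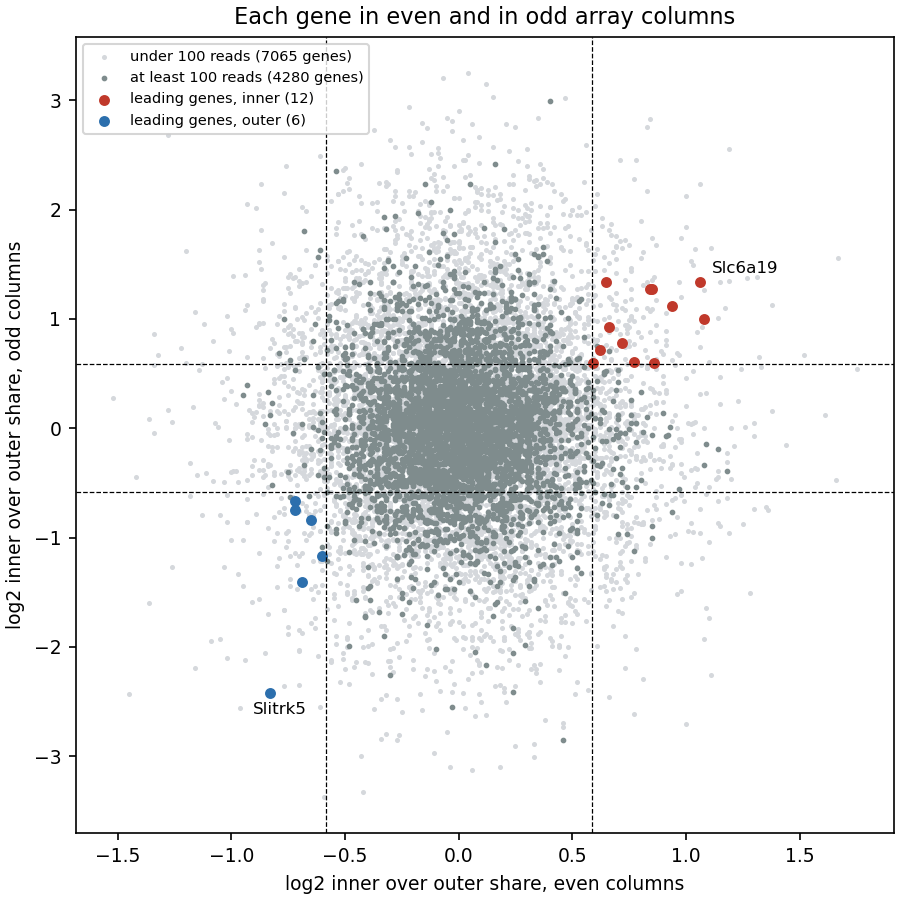
The log2 ratio of the mean share in inner spots to that in outer spots for each of 11345 genes, in even columns (horizontal) and odd columns (vertical), with dashed lines at 1.5-fold. The points form a cloud centred near 0 with no tilt (r = 0.01), wider in the shallower odd columns, and the 12 leading inner and 6 leading outer genes lie beyond both lines at the upper right and lower left.

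**Figure D3:**
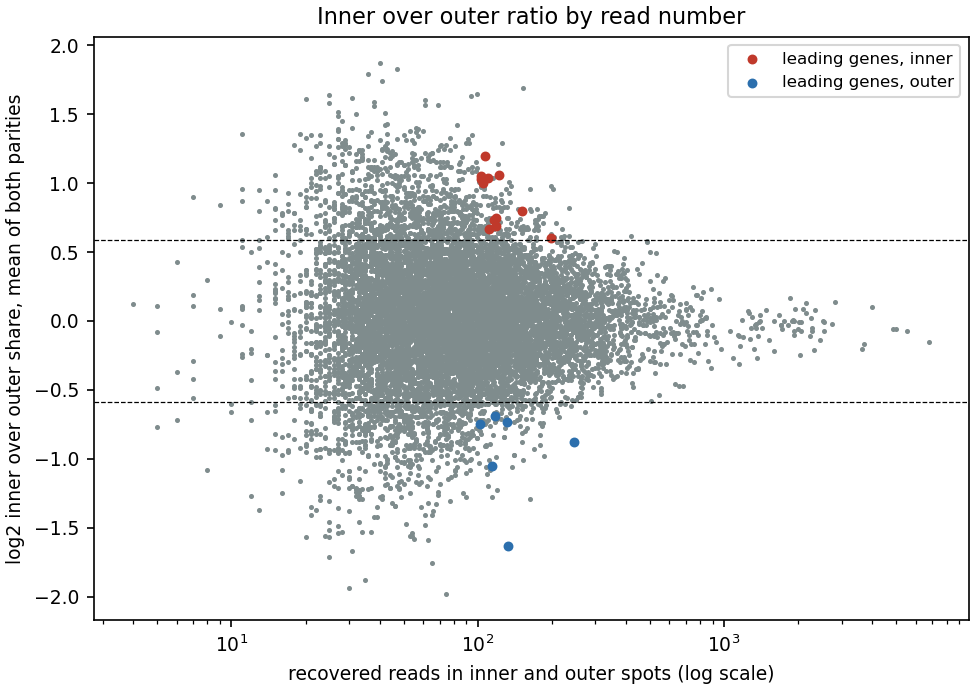
The mean of the even-column and odd-column log2 ratios of each gene against its recovered reads in inner and outer spots (log scale), with dashed lines at 1.5-fold. The spread narrows with depth, and the 189 genes with at least 500 reads lie between -0.58 and 0.50.

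Leading genes were those with at least 100 reads in at least 20 inner and outer spots that were called and stayed so without their strongest spot in each group of spots and parity. This left 12 genes higher in inner and 6 higher in outer spots, from 0.327% and 0.210% called at that depth, beside 0.514% in opposite ways. Membership in this list was set by the ratios themselves, so its values are a description.

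By the smaller of its even-column and odd-column ratios, Slc6a19 came first among the genes higher in inner spots. It encodes a transporter of neutral amino acids best known from kidney and intestine. It had 59 reads in inner and 24 in outer spots of even columns, and 18 and 6 in odd columns, or 1.02 against 0.443 and 1.37 against 0.487 reads per 10000 reads of the spot. The log2 ratios were 1.06 and 1.34, and that of summed reads was 1.14 (0.52 to 1.80). Inner spots were higher in both parities by more than a factor of 2, and no inner or outer spot held more than 3 of its reads. Over 6 rings of 200 spots each, from the centre outward, its mean share was 0.995, 1.39, 0.476, 0.673, 0.492 and 0.436 per 10000, so the largest step lay between the second ring and the third.

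Hsd3b4, which belongs to a family of steroid dehydrogenases with closely similar neighbouring copies whose reads the counting could have split, had 70 against 25 reads in even and 11 against 4 in odd columns. Its log2 ratios were 1.08 and 1.00, and 1.26 (0.64 to 1.93) for summed reads. By summed reads it stood above Slc6a19, and it was the single leading gene whose counting interval lay wholly beyond 1.5-fold. Its reads lay in 72 inner and outer spots, with up to 6 in a single spot. The interval takes no account of reads gathered in the same spots.

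Efnb3, the midline axon guidance ligand ephrin-B3, had 78 against 45 reads in even and 19 against 9 in odd columns, with log2 ratios of 0.66 and 0.93. Ntf5, a neurotrophin that acts through the receptor TrkB, had 67 against 32 and 16 against 7 reads, with ratios of 0.85 and 1.27. Of the 63 reads of its neighbour Lhb over all spots, 48 (76.2%) fell in the same spots as Ntf5 reads, the highest such share among the leading genes, so the reads of the pair cannot be treated as separate. Rarb, a retinoic acid receptor expressed in the striatum, had 63 against 33 and 10 against 5 reads, with ratios of 0.62 and 0.72. Calhm2, a member of the calcium homeostasis modulator channel family, had 59 against 25 and 13 against 6 reads, with ratios of 0.94 and 1.12. In odd columns each of these ratios rests on at most 9 reads in the outer spots.

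The other leading inner genes were the autophagy enzyme gene Atg7 (0.84 in even and 1.27 in odd columns), the zinc finger transcription factor gene Patz1 (0.72 and 0.78), the sulfotransferase family member Sult6b2 (0.65 and 1.34), the actin-nucleating formin gene Diaph1 (0.77 and 0.61), the muscle chloride channel gene Clcn1 (0.86 and 0.60) and the carbohydrate sulfotransferase gene Chst1 (0.59 and 0.60). Chst1 had the most reads of the 12, with 120 in inner and 79 in outer spots, and its ratio of summed reads, 0.39 (-0.04 to 0.81), had an interval that includes 0. The intervals of the other 11 do not. The mean log2 ratio of Sult6b2 was 1.00 with recovered reads and 0.12 with the deposited values, and that of Atg7 was 1.05, and 0.30 when all spots were split into 2 equal groups by distance.

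Slitrk5, a transmembrane protein that organises synapses, came first by the same measure among the genes higher in outer spots. It had 47 reads in inner and 67 in outer spots of even columns, and 3 and 16 in odd columns, or 0.762 against 1.42 and 0.178 against 1.34 reads per 10000. The log2 ratios were -0.83 and -2.42, and that of summed reads was -0.95 (-1.49 to -0.43). Its share over the 6 rings was 0.427, 0.514, 0.85, 1.14, 1.4 and 1.36 per 10000, higher step by step up to the fifth ring.

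Cacnb2, a subunit of voltage-gated calcium channels, had the most reads of the leading outer genes, with 91 against 110 in even and 15 against 31 in odd columns. Its log2 ratios were -0.60 and -1.17. Its share was lowest in the second ring, at 1.13 per 10000, and highest in the fifth, at 2.88. The other leading outer genes were Stra6, which takes up retinol into cells (-0.65 and -0.84), the X-linked homeobox gene Rhox12 (-0.72 and -0.67), the orphan receptor gene Mrgprf (-0.72 and -0.75) and Fam160b2 (-0.69 and -1.41). Stra6 had 2 against 4 reads in odd columns and Mrgprf 9 against 9, so their odd-column ratios rest on which spots, deep or shallow, held those reads.

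**Figure D4:**
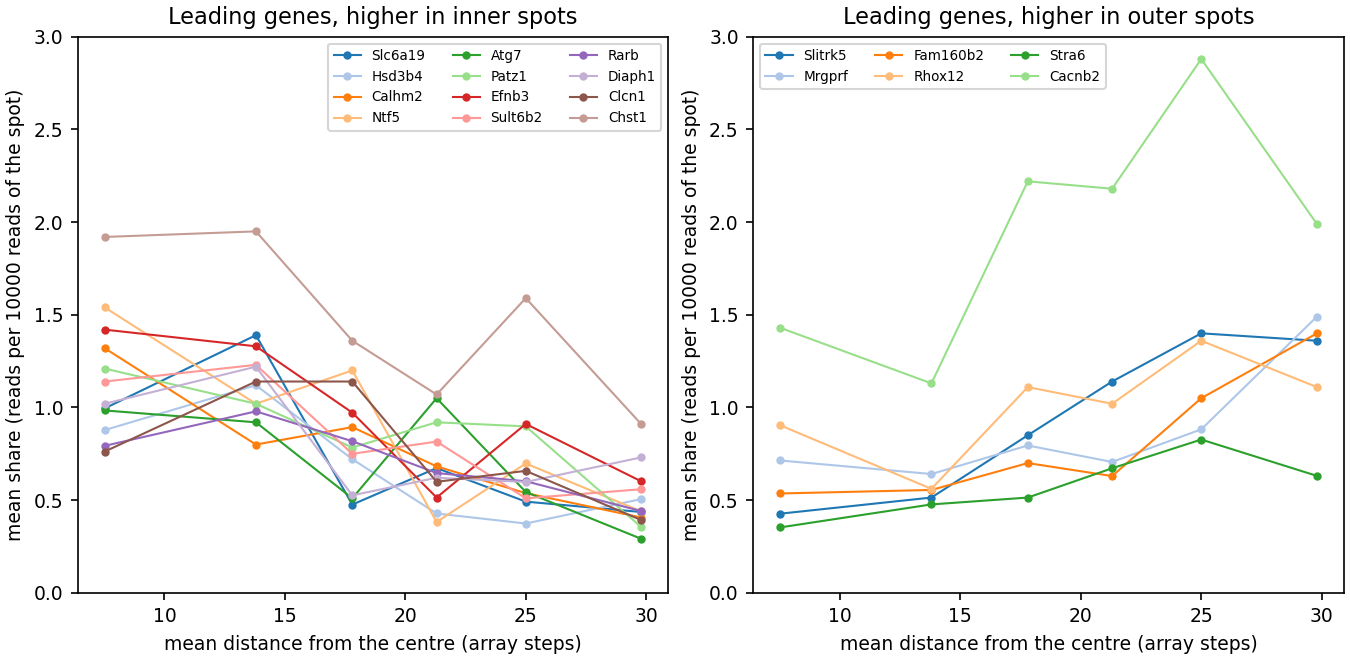
Mean share (reads per 10000 reads of the spot, mean of both parities) of the 12 leading inner genes and the 6 leading outer genes in 6 rings of 200 spots, against the mean distance of the ring from the centre in array steps. Each line is 1 gene chosen by its inner and outer values, and most change unevenly from ring to ring.

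The tissue lists showed no difference between inner and outer spots that was detectable beyond counting error. All 16 lists together held 306 measured genes. Of these, 1 was called higher in inner spots (0.327%, against 1.45% of all genes) and 2 in outer spots (0.654%, against 0.978%). A further 8 of the 306 went opposite ways, as 2.58% of all genes did. Among all genes with at least 100 reads these shares were 0.327%, 0.210% and 0.514%. Depth differs between the lists and all genes, so these shares do not show that list members were called less often. When the reads of each list were summed, the counting interval of every one of the 16 ratios included 0 and lay within 1.5-fold. The sign of the summed ratio was equal in even and odd columns for 6 of the 16 lists.

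Genes of neurons had ratios near 0. The 17 of 24 pan-neuronal genes measured had 1227 reads in inner and 1038 in outer spots, a log2 ratio of summed reads of 0.02 (-0.10 to 0.14), and 0 were called. The median member lay at -0.17, against 0.02 over all genes. Excitatory neurons of cortex and hippocampus lay at 0.01 (-0.07 to 0.10; 24 genes, median -0.03), neurons of thalamus, hypothalamus, midbrain and hindbrain at 0.01 (-0.06 to 0.08; 35 genes, median 0.02), and striatal and inhibitory neurons at 0.04 (-0.07 to 0.14; 20 genes, median -0.11), each with 0 called. Across these lists the even-column ratio was 0.03 to 0.06 and the odd-column ratio -0.18 to -0.01, and every one of these 8 intervals included 0. In the thalamus to hindbrain list Shox2, whose reads are lower bounds, held 909 of 3556 inner and 797 of 3032 outer reads. Cerebellar genes had the widest interval, 0.15 (-0.08 to 0.38; 8 genes).

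Individual neuronal genes lay on both sides. Syt1, the calcium sensor of synaptic vesicle release, which was picked after its values were seen, had 131 against 70 reads in even and 22 against 11 in odd columns, with log2 ratios of 0.70 and 0.53, so it missed the threshold in odd columns. Rorb, a transcription factor of cortical layer 4 neurons and likewise picked afterwards, had 44 against 47 and 6 against 23 reads, with ratios of -0.48 and -1.99. Cbln3, a cerebellin of granule cells, was the called member of the cerebellar list, with 32 against 12 and 8 against 2 reads and ratios of 0.76 and 1.18, while its relative Cbln1 went opposite ways at 0.65 and -1.17. Itpr1, a calcium release channel, and Etv4 had means of 0.46 and 0.31 toward inner spots, and Rgs8 of -0.21, none of them called.

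Glial and vascular lists lay near 0 as well. Oligodendrocyte and myelin genes had 1174 against 1036 reads, a log2 ratio of -0.04 (-0.16 to 0.08; 18 genes, median 0.13), with -0.11 (-0.24 to 0.03) in even and 0.27 (-0.02 to 0.56) in odd columns. Mog, a protein of the outer myelin sheath, was called higher in outer spots with 40 against 56 and 10 against 11 reads and log2 ratios of -0.74 and -0.63, and it was no longer called without its strongest spots (-0.73 and -0.26). Cnp and Opalin, also of myelin, had means of 0.57 and 0.42, and Gpr17 and Sox10, genes of earlier oligodendrocyte stages and of the lineage, -0.33 and -0.22, and none of these 4 was called. Astrocyte genes lay at 0.00 (-0.12 to 0.13; 15 genes), microglia and macrophages at -0.09 (-0.27 to 0.09; 11 genes), and endothelium, pericytes and smooth muscle at 0.00 (-0.13 to 0.13; 19 genes), with 0 called in each.

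The lists that mark the surface and the cavities of the brain were level too. Meninges and vascular fibroblasts had 2315 against 1958 reads and a ratio of 0.02 (-0.06 to 0.11; 22 genes), and ependyma and choroid plexus 887 against 760 reads and 0.01 (-0.14 to 0.15; 12 genes), with 0 called in both. Outer spots take in the whole width of both ends of the oval, and much of its long edges falls among the middle spots. The comparison is therefore not one of surface against depth. Lum (709 against 628) and Igf2 (380 against 322) held a large part of the reads of the meningeal list. Blood cell genes lay at -0.05 (-0.19 to 0.10; 14 genes), and at -0.03 (-0.18 to 0.13) with the near-identical globin copies Hba-a1 and Hba-a2, which had the same reads in every spot, counted once. Over all genes, 62 form 31 such pairs. Immediate early genes, which neuronal activity switches on, lay at 0.03 (-0.09 to 0.14; 18 genes), and 1 of them, Ier5, with 23 reads, was called in outer spots at -0.95 and -1.02. Egr3, Fosb and Npas4 had means of 0.77, 0.44 and 0.44 and Nptx2, Fosl2 and Jun of -0.48, -0.41 and -0.36, all uncalled.

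The remaining lists gave the same picture. Housekeeping genes lay at -0.07 (-0.22 to 0.09; 20 genes), Hox genes, which are silent in the forebrain, at -0.05 (-0.13 to 0.03; 31 genes) and genes of muscle, liver, skin and germ line at 0.01 (-0.13 to 0.15; 24 genes). The level of the lists was compared too, inner or outer aside. On reads per kilobase of genomic length, the median Hox gene stood at percentile 89.7 of all genes, the median gene of the other tissues at 78.6 and of the housekeeping list at 80.2, against 33.9 for the pan-neuronal list, 54.7 for cortical and hippocampal neurons, 67.3 for oligodendrocytes, 70.3 for striatal and inhibitory neurons and 83.2 for neurons of thalamus to hindbrain. On reads alone the order was another: the median percentile was 76.4 for cortical and hippocampal neurons, 71.9 for Hox genes, 70.5 for neurons of thalamus to hindbrain, 63 for striatal and inhibitory neurons, 50.3 for the pan-neuronal list, 49.8 for oligodendrocytes, 43.3 for the other tissues and 38.8 for housekeeping genes. Reads correlated weakly with genomic length (Spearman's rho = 0.17 over 11337 genes), which puts long genes low on the scale per kilobase. The median gene held 120 reads and the median pan-neuronal gene 121.

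**Figure D5:**
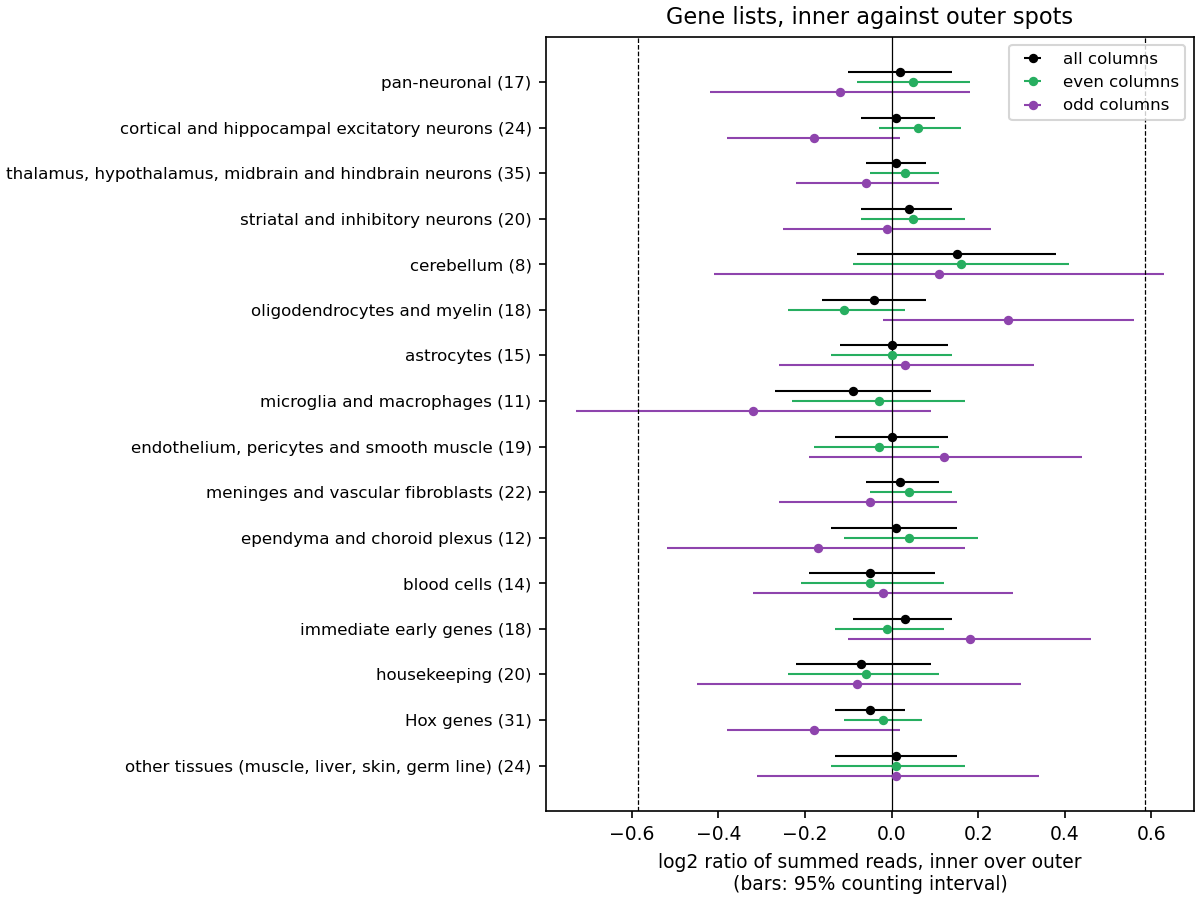
The log2 ratio of summed reads, inner over outer spots, for 16 gene lists (number of measured genes in brackets) over all columns and in even and odd columns, with 95% counting intervals as bars and dashed lines at 1.5-fold. Over all columns every interval includes 0 and lies within the dashed lines.

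Larger groupings of genes narrowed the limits further. In 4 equal groups of the genes by genomic length, with a median of 4.41 kb in the shortest and 110 kb in the longest, the ratio of summed reads was -0.01 (-0.02 to 0.00), 0.01 (0.00 to 0.02), 0.00 (-0.01 to 0.01) and 0.00 (-0.01 to 0.01) from short to long. The 4 genes with the most reads, Gm14569, Cbr3, Cox6b1 and Slco2b1, had ratios of -0.15, -0.07, -0.06 and -0.06, but their reads are lower bounds that fall short most in deep spots. The recovered share of Gm14569 was 42.8 per 10000 in inner spots of even columns and 93.5 in the shallower odd columns, so these shares move with depth. With the missing reads filled in from the list that all spots share, in proportion to spot depth, the ratio of Gm14569 was 0.00. That filling gives a gene at the top rank nearly the same share in every spot. The value is therefore set by the filling and does not measure a difference between inner and outer spots.

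The spread of most single genes over spots was close to counting error at this depth. The median gene of the section held 120 reads over 1200 spots. Counting therefore makes up most of the spread of such a gene, whatever its pattern over the section. For each gene the squared deviation of its reads from the number its share of the spot's depth predicts was divided by that number and averaged over the spots of a parity, which gives 1 for pure counting. The median was 1.01 over 5573 genes with at least 100 reads in even columns and 1.04 over 388 such genes in odd columns, and the central 90% of genes lay at 0.902 to 1.19 and at 0.895 to 1.84. Shares of a gene in the nearest spots of the same parity, compared over 2285 pairs of spots, had a median correlation of -0.004 over the 2820 genes with at least 200 reads. The 95th percentile was 0.04, and the highest was 0.40 for Gm14569, whose shares move with depth. With so few reads per spot, neither measure can show that the share of a gene is even over the section.

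The same calculation was made in the other 5 sections, whose spots share the array design and not the tissue. The 12 leading inner genes had a mean log2 ratio above 0 in 8 of 12 cases in the embryo H3K4me3 section (E11.5), in 7 and 5 in the control and arthritis paws (H3K27ac), and in 3 and 5 in the embryo H3K27ac and H3K27me3 sections. The signs in the embryo sections rest on few reads, 1 to 32 per leading inner gene for H3K4me3 and 6 to 78 for H3K27ac, against at least 107 in either paw. The 6 leading outer genes were below 0 in 2, 2, 3, 3 and 2 cases, in the order embryo H3K4me3, control paw, arthritis paw, embryo H3K27ac and embryo H3K27me3. Across the 9546 to 11345 genes held in common, the mean log2 ratio of the brain correlated with that of the other sections at r = -0.02 to 0.01. The brain ratios correlated at only 0.01 between even and odd columns, so values near 0 cannot tell whether a pattern is shared between sections. In the control paw 313 of 19378 genes (1.62%) were past the threshold in opposite ways, beside 218 called inner (1.12%) and 108 called outer (0.557%). In the arthritis paw 30 of 11130 (0.27%) were, beside 16 (0.144%) and 9 (0.0809%). The embryo sections had 16% to 18.4% in opposite ways, beside 6.56% to 9.23% called inner and 9.05% to 9.98% called outer. Over genes with at least 100 reads, r between the parities was 0.12 in each embryo section and 0.01 in the brain and either paw.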

How the data were processed

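The deposited signal values per gene and spot were quantile-normalised by the authors, per the names the authors gave their deposited tables, and the submitters' processing notes name Bowtie2, featureCounts and MACS2 and the builds hg19 and mm9, with roles and versions not given in the sources used here. In the brain section each of 1200 spots holds 4257 values above 0, from 1 list shared by all spots times 1 factor per spot, and 68.9% of them belong to genes without reads. Ties were ranked in table order, so reads were recovered from the ranks: each point where the order starts again marks 1 read fewer. Numbers are exact until a count is held by fewer than 5 genes. A gene with over 10% of its reads beyond that has a lower bound (93 genes). The sum over spots equalled the list's whole number at 37.4% of 4257 ranks and deviated by a median of 0.54%, the recovered total was 95.2% of the list's, and the highest rank held 10308 of 72284. The recovery and the calls were tested on simulated data. The share is reads over the reads of the spot, averaged over spots, and a pseudocount of 0.1 of the mean share was added before log2. Named genes follow the rule for leading genes given above (at most 12 per direction), up to 3 members with at least 50 reads per direction of each list with a called member, and the 4 genes with the most reads. Some list members that the rule names are not reported here. Syt1, Rorb, Ier5 and the genes of the largest spread were chosen after their values were seen. The spots compared, the lists and the rules were chosen with earlier results of these data known. Of the gene names, 11288 matched a RefSeq symbol, 49 a synonym and 8 neither. Reads without molecular identifiers are not independent molecules, so intervals cover counting error only. The other 5 sections were treated alike, with embryo genes put in the order of the control paw. Python 3.11.15, numpy 2.4.6, pandas 2.3.3 and scipy 1.17.1 were used.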

Additional observations from a re-analysis of the deposited data

How the results depend on the processing

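No paired analysis was possible because the comparison lies within 1 section and comes from no test. The numbers called higher in inner spots, higher in outer spots and in opposite ways, 164, 111 and 293, became 109, 39 and 122 with the deposited values, 275, 211 and 498 with a pseudocount of 0.02, 9, 4 and 6 with one of 0.5, 75, 45 and 132 with 2 equal groups of spots by distance, 268, 205 and 448 for the nearest and farthest of 4 equal groups, and 333, 194 and 547 in spots of at least median depth. With 1 side of the array they were 483, 319 and 776 (upper rows), 463, 374 and 811 (lower rows), 423, 340 and 706 (left columns) and 502, 368 and 881 (right columns). They were 14, 9 and 22 for genes with at least 100 reads and 18, 9 and 12 at 2-fold. Even columns alone called 663 and 490 genes, odd columns alone 2512 and 2240. The correlation of even with odd columns stayed between -0.01 and 0.04 under the 19 of 21 alternatives that keep both parities, of which 1, with reads beyond the exact zone filled in from the common list, was added after seeing the data. The deposited values carry the gene order: their log2 ratio correlated with it at rho = -0.19, that of recovered reads at 0.00. Of 320 list medians under the alternatives, 13 moved beyond the central order statistics of their members: neurons of thalamus to hindbrain 0.14 with 4 groups; astrocytes -0.25 at median depth, 0.26 in upper rows and 0.27 in right columns; endothelium 0.23 at median depth and 0.18 in left columns; blood cells -0.39 in left columns; other tissues 0.44 in lower rows, 0.42 in odd columns and -0.16 with at least 100 reads; and in odd columns pan-neuronal genes -0.41, striatal genes -0.37 and oligodendrocytes 0.43. Mrgprf turned to 0.37 at median depth and Stra6 to 0.32 in lower rows and 0.28 in left columns; the cause was not tested. Of the 12 leading inner and 6 leading outer genes, 8 and 3 stayed called with the deposited values, with shares of summed reads and without the array row of most reads, 4 and 1 with a pseudocount of 0.5 and with 2 groups, 7 and 2 with 4 groups, 5 and 2 at median depth, 10 and 3 in upper rows, 5 and 4 in lower rows, 5 and 3 in left columns, 8 and 4 in right columns, and 1 and 0 at 2-fold. Sult6b2 had 0.12 with the deposited values and Atg7 0.30 with 2 groups. Counting the globin pair once was also added after seeing the data. In odd columns the median spot held 531 to 646 reads, which limits the ratios there.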

Other observations

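Some genes varied from spot to spot beyond counting error. Of 2820 genes with at least 200 reads, 74 (2.62%) exceeded counting by a factor of 1.3 in both parities. Across the 2820 genes the excess in even and odd columns correlated at r = 0.73. The log2 ratios of inner to outer spots correlated at 0.05 over genes with 200 to 500 reads in those spots. Over genes with at least 500 they correlated at 0.07. The 74 genes were chosen by their spread, and 45 of them have reads that are lower bounds. The highest was Abcd2, a transporter of very long chain fatty acids into peroxisomes, at 4.68 in even and 3.63 in odd columns. It had 551 reads in 189 spots and up to 17 in a single spot, with log2 ratios of inner to outer spots of 0.78 in even and -0.54 in odd columns. The ubiquitin ligase gene Ubr2 (3.57 and 3.34), Eps8l1, an actin regulator (3.17 and 3), and the neuronal transcription factor gene Npas3 (4.44 and 2.78) followed. Correlations between nearest spots of the same parity were 0.00 for Abcd2, 0.08 for Ubr2, 0.00 for Eps8l1 and 0.02 for Npas3, and the reads of these 4 genes are lower bounds. Of the 74 genes, 1 (Eps8l1, 0.61 and 0.75) was called higher in inner and 0 in outer spots. The shares called were 1.45% and 0.978% over all genes, most of them shallower than these 74. They were 0.327% and 0.210% over genes with at least 100 reads in inner and outer spots.

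Hsd3b4 was past 1.5-fold toward inner spots in both parities in 3 sections: at 1.08 and 1.00 in the brain, 0.68 and 0.73 in the control paw (176 reads) and 0.73 and 1.02 in the arthritis paw (273 reads). In the control and arthritis paws 1.12% and 0.144% of all genes were called that way. Among genes with at least 100 reads, 26 of 9299 in the control paw and 8 of 8932 in the arthritis paw were. In the embryo sections Hsd3b4 had 14 to 49 reads and means of -1.34 to 0.15. This gene was singled out after these values were seen.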
